A study of Mus musculus with 2 samples.

Results

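The 39 genes described here encode the machinery that takes glucose into the cell, splits it to pyruvate, turns pyruvate into lactate or passes it to the mitochondrion, and diverts glucose 6-phosphate into the pentose phosphate pathway. They were taken by symbol from a list of 39 glycolysis, lactate and pyruvate genes. All 39 were among the 18724 genes of the deposited table, and all 39 were measured, that is, had a mean normalised read count of at least 10 over both libraries. The RNA was total RNA from prostate luminal epithelial cells of mice aged 18 weeks, sorted by flow cytometry for a green fluorescent protein fused to histone 2B. The label-retaining (GFP-positive) cells gave 1 library, whose table counts add up to 50689229 reads, and the non-retaining (GFP-negative) cells 1 library of 48334265 reads. No label states the promoter that drives the histone fusion, the strain, the sort markers or how many mice were pooled. The histone label is diluted when a cell divides, so cells that divide rarely keep it longer.

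Glucose enters through facilitative transporters and is trapped by hexokinase. Phosphofructokinase then commits it to glycolysis, under the control of fructose 2,6-bisphosphate, which the bifunctional PFKFB enzymes make and remove. Pyruvate leaves the cytosol as lactate through the monocarboxylate transporters or enters the mitochondrion, where pyruvate dehydrogenase converts it to acetyl-CoA unless the pyruvate dehydrogenase kinases switch it off. In the prostate this branch is of interest because secretory luminal cells build up and release citrate, which is made from acetyl-CoA.

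Values given as normalised reads are read counts that the authors divided by a size factor for their library. Values given as reads alone are counts recovered from before that division. The log2 ratio sets normalised reads of the label-retaining library over those of the non-retaining library, with a pseudocount of 0.5. The interval after it is an exact (Clopper-Pearson) 95% counting interval. A gene was called higher or lower when it was at least 2-fold apart and the interval excluded equality. With 1 library per group no test was possible, so all statements compare these libraries and have no replicate check. The intervals cover counting error only, and may be too narrow even for that, since reads without molecular identifiers are not independent molecules. In RNA from sorted populations, fewer cells of a type and less RNA per cell cannot be told apart.

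The genes of the transporters GLUT1, GLUT3, MCT1 and MCT4, of hexokinase 2, of the platelet-type phosphofructokinase and of the pyruvate dehydrogenase kinase PDK4 were lower in the label-retaining library, while most of the other enzymes did not differ by 2-fold. Of the 39 genes, 7 were lower in the label-retaining library (Slc2a1, Slc2a3, Hk2, Pfkp, Slc16a1, Slc16a3 and Pdk4), 4 were higher (Pfkfb4, G6pdx, Pdk2 and Pfkfb2) and 28 were neither. Among all 17183 measured genes, 19.4% were called lower and 14.5% higher, 33.8% in all, so the 11 calls are no larger a share than in the table as a whole. The median log2 ratio of the 39 genes was 0.08, beside -0.01 for all measured genes. The 39 genes together took up 0.346% of the reads of the label-retaining library, against 0.481% in the non-retaining library. Under the deposited scaling their summed normalised reads were closer, at 175162 in the label-retaining library, against 211586 in the non-retaining library. Grouped by role, with their values already known, 5 of the 6 genes of glucose uptake, glucose phosphorylation and monocarboxylate export were lower (median log2 ratio -2.31), whereas 0 of the 12 genes of the steps from phosphoglucose isomerase to lactate dehydrogenase, leaving out phosphofructokinase, were called (median 0.06).

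**Figure D1:**
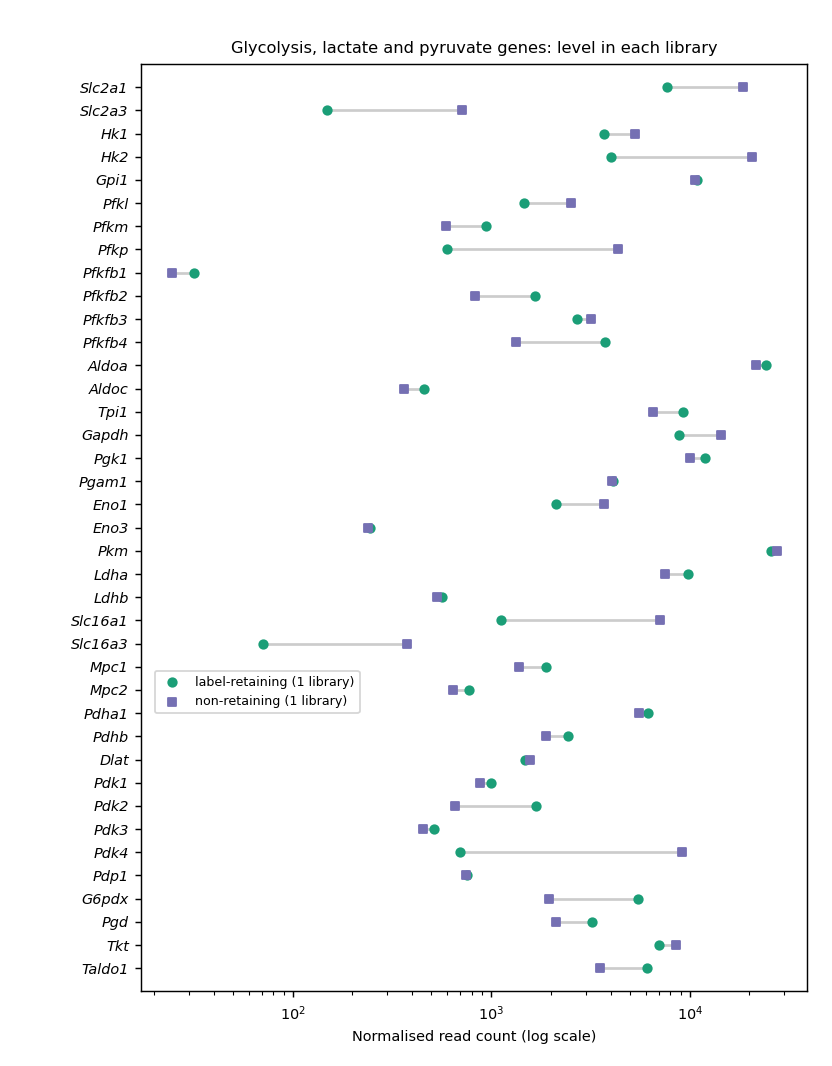
Normalised read count (log axis) of each of the 39 genes in the label-retaining library (circles) and the non-retaining library (squares), 1 library each, ordered by role from glucose uptake to the pentose phosphate pathway. The widest gaps are those of Pdk4, Pfkp, Slc16a1, Slc16a3, Hk2 and Slc2a3, with the label-retaining value on the left, whereas for Gpi1, Pgam1, Eno3, Ldhb and Pdp1 the symbols overlap.

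The sorted populations also differed in markers of other cells. Of 12 basal cell markers, 12 were called lower, and their summed reads were 0.108% of the label-retaining library, against 1.10% of the non-retaining library. Smooth muscle markers were lower in 8 of 8 and red cell markers in 4 of 4. Leukocyte markers were lower in 7 of 12 and higher in 2 (0.00274% of reads in label-retaining cells, against 0.0357% in non-retaining cells). Gzma was at 0 reads in the label-retaining library, whereas the 2 higher markers were Lyz2 (log2 ratio 1.03) and Adgre1 (1.08). Fibroblast markers were split, lower in 3 of 7 (Dcn, Pdgfra and Pdgfrb) and higher in 2 (Col1a1 and Lum), with a median log2 ratio of 0.94. Endothelial markers were lower in 5 of 7. Luminal markers were measured in both libraries in 12 of 12, were higher in 6 and lower in 0, with 5.47% of reads in label-retaining cells, against 1.85% in non-retaining cells. The part of these other cells in the lower glycolytic genes was not tested.

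Both glucose transporter genes of the list were lower. Slc2a1 encodes GLUT1, the widespread basal glucose transporter (chromosome 4, 119108711 to 119137983, plus strand; all positions are from GENCODE M21, build GRCm38, which is mm10). It had 7709.7 normalised reads in the label-retaining library, against 18655 in the non-retaining library (log2 ratio -1.27, interval -1.31 to -1.24). Slc2a3, encoding the high-affinity transporter GLUT3 (chromosome 6, 122727809 to 122801640, minus strand), had 149 normalised reads in the label-retaining library, against 714 in the non-retaining library (-2.26, -2.53 to -2.01). Per unit of exon length, Slc2a1 made up 99.1% of the reads of this pair in label-retaining cells, against 98.2% in non-retaining cells, so GLUT1 was the main one of the pair in both.

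Hexokinase 2, the inducible isoenzyme, differed much more than hexokinase 1. Hk2 (chromosome 6, 82725025 to 82774454, minus strand) had 3999.5 normalised reads in the label-retaining library, against 20617.5 in the non-retaining library (-2.37, -2.41 to -2.32). Hk1, the constitutive isoenzyme, had 3710.2 in label-retaining cells, against 5269.7 in non-retaining cells (-0.51, -0.57 to -0.45), which is under 2-fold. The Hk2 share of the per-length hexokinase signal was therefore 60.6% in the label-retaining library, against 84.8% in the non-retaining library. As a share of reads it was 51.9% (exact binomial interval 50.8 to 53.0) in label-retaining cells, against 79.6% (79.2 to 80.1) in non-retaining cells. Such shares are taken within a library and do not depend on the scaling between libraries.

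The 3 phosphofructokinase genes did not move together. Pfkp, the platelet-type subunit (chromosome 13, 6579768 to 6648777, minus strand), had 598 normalised reads in the label-retaining library, against 4369 in the non-retaining library (-2.87, -2.99 to -2.75). Pfkl, the liver-type subunit, had 1457 in label-retaining cells, against 2519 in non-retaining cells (-0.79, -0.88 to -0.70), and Pfkm, the muscle-type subunit, had 942 in label-retaining cells, against 591 in non-retaining cells (0.67, 0.53 to 0.82). Neither of these passed 2-fold. Per length, Pfkm held 51.8% of the family in the label-retaining library and 20.1% in the non-retaining library. Pfkl held 40.1% in label-retaining cells and 42.9% in non-retaining cells. Pfkp held 8.19% in label-retaining cells and 37.0% in non-retaining cells. These shares depend on the exon lengths used, 3340 bases for Pfkm, 6675 for Pfkl and 13401 for Pfkp. Pfkp exons overlap those of Pitrm1 on the opposite strand over 748 of 13401 bases, and those of Pfkm overlap the long RNA gene Gm26513 on the same strand, so some of their reads may have been dropped or assigned to either gene.

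Of the 4 PFKFB genes, 2 were higher and 0 lower, beside 14.5% higher and 19.4% lower among all measured genes. Pfkfb4 (chromosome 9, 108991778 to 109032228, plus strand) had 3764 normalised reads in the label-retaining library, against 1333 in the non-retaining library (1.5, 1.41 to 1.59), the highest log2 ratio among the 39 genes, with an interval that overlaps that of G6pdx. Pfkfb2, the heart-type enzyme (chromosome 1, 130689182 to 130729253, minus strand), had 1658 in label-retaining cells, against 826 in non-retaining cells (1.01, 0.89 to 1.12) and stood at the threshold. It was below 2-fold when libraries were scaled on their total reads. Pfkfb3, whose enzyme strongly favours making fructose 2,6-bisphosphate, had 2696 in label-retaining cells, against 3185 in non-retaining cells (-0.24, -0.31 to -0.17), and Pfkfb1 had 31.9 in label-retaining cells, against 24.6 in non-retaining cells with an interval that held equality (0.37, -0.41 to 1.17). The most abundant PFKFB gene per length was Pfkfb4 in the label-retaining library (56.6%, against 33.6% in the non-retaining library) and Pfkfb3 in the non-retaining library (26.1% in the label-retaining library, against 51.7% in the non-retaining library).

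**Figure D2:**
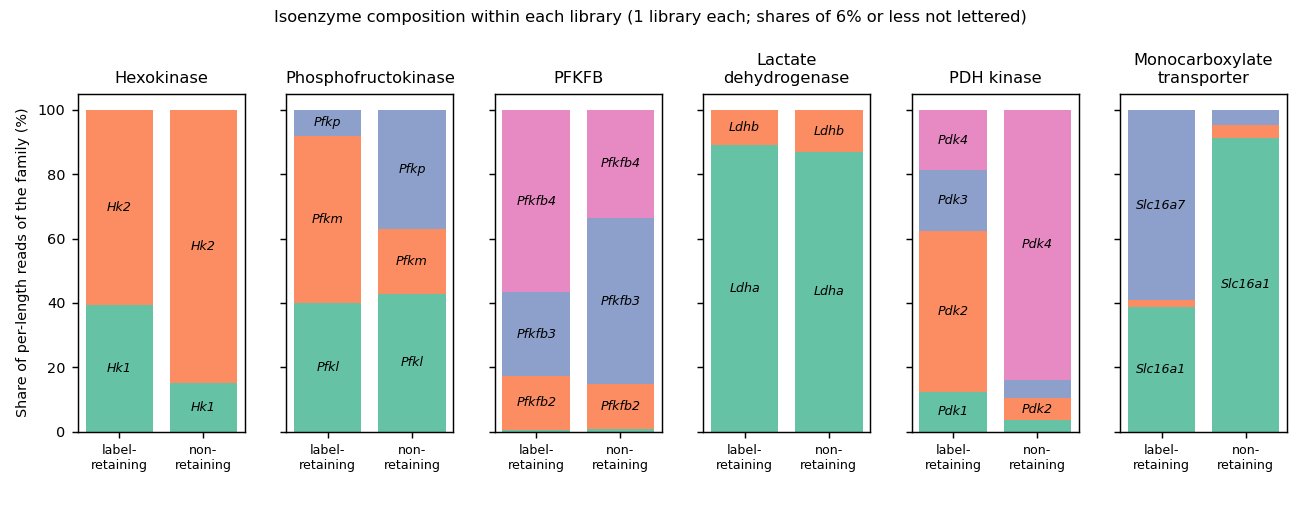
Share of the per-length reads of 6 isoenzyme families held by each gene, in the label-retaining (left bar) and non-retaining (right bar) library, 1 library each. Pdk4 fills 18.7% of the kinase bar of the label-retaining library and 84.0% of that of the non-retaining library, and the lactate dehydrogenase bars are nearly alike, with Ldha at 89.1% in the label-retaining bar and 86.9% in the non-retaining bar.

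Leaving out phosphofructokinase, the enzymes from phosphoglucose isomerase to pyruvate kinase were all under 2-fold, and the 3 genes of the 39 with the highest level per length in the label-retaining library were among them. On a per-length scale (TPM, which divides reads by exon length and brings each library to the same total over the genes of the table), the aldolase gene Aldoa stood first of the 39 genes in both libraries, with a level of 482 TPM in label-retaining cells, against 443 TPM in non-retaining cells. Pgk1, the phosphoglycerate kinase gene, had 308 TPM in label-retaining cells, against 267 TPM in non-retaining cells. Pkm, the gene of the muscle-type pyruvate kinase, had 296 TPM in label-retaining cells, against 328 TPM in non-retaining cells. Among these enzymes the lowest log2 ratios were those of Eno1 (enolase, -0.80, -0.88 to -0.73) and Gapdh (glyceraldehyde 3-phosphate dehydrogenase, -0.69, -0.73 to -0.65). The highest was that of the triose phosphate isomerase gene Tpi1 (0.52, 0.47 to 0.56). Gpi1, Pgam1 and Eno3, which encode phosphoglucose isomerase, phosphoglycerate mutase and the muscle enolase, had intervals that held equality. Aldoc, the brain-type aldolase, was at 0.34 (0.14 to 0.53). The 2 splice forms of pyruvate kinase cannot be separated in a table of gene counts.

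Several of these abundant genes have near-identical copies in the genome. Of the 50-base stretches of Pgk1 transcripts, 53.9% also occurred in transcripts of another gene, chiefly the pseudogene Pgk1-rs7. The share was 36.2% for Pgam1, 26.3% for Mpc1, 26% for Eno1, 25.8% for Pkm, 25.1% for Gapdh and 21% for Ldhb. It was 0% for Hk2, Pfkfb4, Slc16a1, Slc16a3 and Pdk2, 1.26% for Slc2a3, 1.40% for Pdk4, 1.54% for Slc2a1 and 5.10% for Pfkp. Among the higher genes it was 17.3% for Pfkfb2, mainly with Gm29427 and Yod1. No label states how reads shared between genes were handled, so the levels of the first group and of Pfkfb2 are uncertain. G6pdx shared 16.9%, mainly with Ikbkg on the opposite strand, whose exons overlap it over 418 of 3080 bases.

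Lactate dehydrogenase differed little between the libraries. Ldha, whose subunit favours the conversion of pyruvate to lactate, had 9749 normalised reads in the label-retaining library, against 7519 in the non-retaining library (0.37, 0.33 to 0.42). Ldhb, whose subunit favours the reverse reaction, had 565 in label-retaining cells, against 536 in non-retaining cells (0.08, -0.09 to 0.24).

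Of the proton-linked carriers that move lactate across the plasma membrane, Slc16a1 and Slc16a3 were lower and Slc16a7 was higher. Slc16a1, encoding MCT1 (chromosome 3, 104638668 to 104658462, plus strand), had 1119 normalised reads in the label-retaining library, against 7123 in the non-retaining library (-2.67, -2.76 to -2.58). Slc16a3, encoding the exporter MCT4 (chromosome 11, 120948480 to 120960868, plus strand), had 70.9 in label-retaining cells, against 378 in non-retaining cells (-2.41, -2.80 to -2.05). Slc16a7, encoding the high-affinity carrier MCT2 and not one of the 39 genes, went the other way. It had 4559 normalised reads in label-retaining cells, against 952 in non-retaining cells (2.26, 2.16 to 2.36). Among the 3 carriers the per-length share of Slc16a7 was 59.1% in the label-retaining library, against 4.56% in the non-retaining library, and that of Slc16a1 was 38.8% in label-retaining cells, against 91.4% in non-retaining cells. The chaperone genes that carry these transporters to the membrane were lower too, Bsg (basigin, the partner of MCT1 and MCT4) at -1.10 (-1.13 to -1.07) and Emb (embigin, a partner of MCT2) at -2.77 (-2.88 to -2.66).

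**Figure D3:**
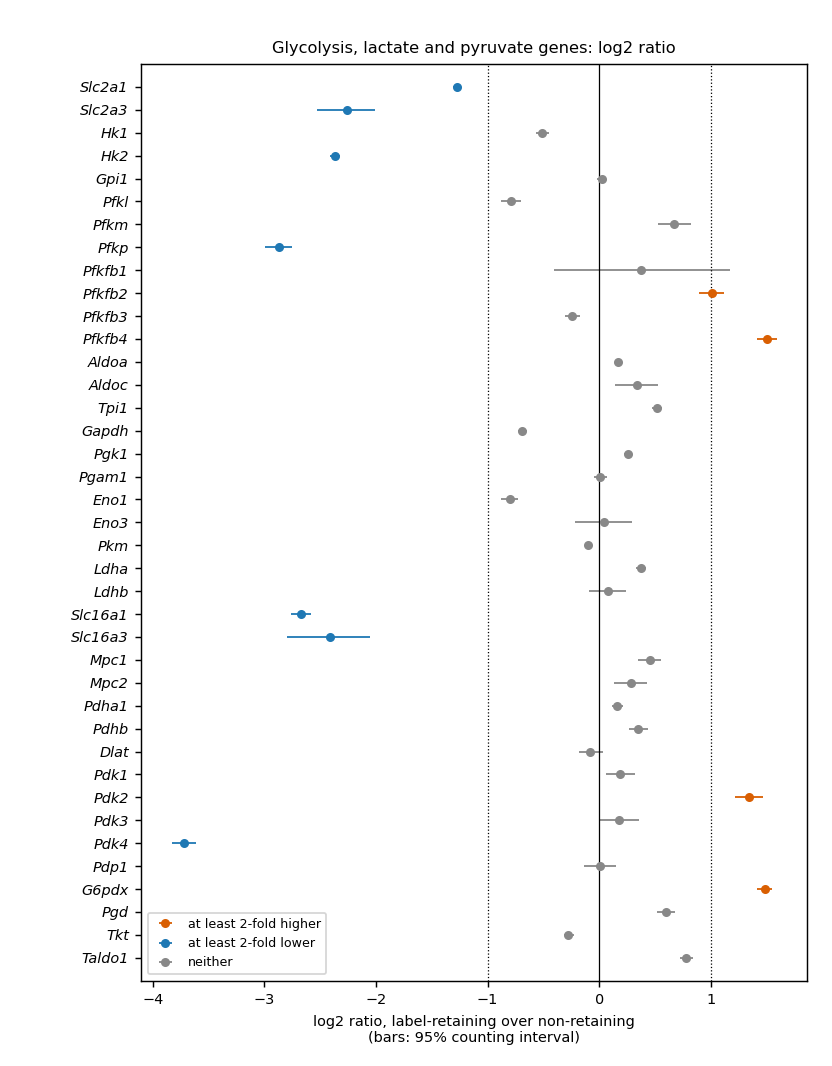
log2 ratio of label-retaining over non-retaining for the 39 genes, with 95% counting intervals; dotted lines mark 2-fold. The 7 lower genes lie between -3.72 (Pdk4) and -1.27 (Slc2a1), and the 4 higher genes between 1.01 (Pfkfb2) and 1.5 (Pfkfb4).

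Genes for pyruvate entry and oxidation were near equality, apart from the kinases. The mitochondrial pyruvate carrier genes Mpc1 (0.45, 0.35 to 0.55) and Mpc2 (0.28, 0.13 to 0.43), the pyruvate dehydrogenase subunit genes Pdha1 (0.16, 0.11 to 0.21) and Pdhb (0.35, 0.27 to 0.44), the acetyltransferase gene Dlat (-0.08, -0.18 to 0.03) and the phosphatase gene Pdp1 (0.01, -0.14 to 0.15) were all under 2-fold. Pdha1 exons overlap Map3k15 on the opposite strand over 603 of 3734 bases.

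The kinases that inactivate pyruvate dehydrogenase held the lowest ratio of the 39 genes and 1 of the 4 higher ones. Pdk4, the isoenzyme induced by fasting and by fatty acids (chromosome 6, 5483351 to 5496309, minus strand), had 695 normalised reads in the label-retaining library, against 9150.3 in the non-retaining library, 13.2-fold lower (-3.72, -3.83 to -3.61). A ratio as low or lower was found in 3.14% of all measured genes. Pdk2, the most widely expressed isoenzyme (chromosome 11, 95026258 to 95041354, minus strand), had 1671 in label-retaining cells, against 659.5 in non-retaining cells (1.34, 1.22 to 1.47). Pdk1, with 1003 in label-retaining cells, against 878 in non-retaining cells (0.19, 0.06 to 0.32), and Pdk3, with 513 in label-retaining cells, against 452 in non-retaining cells (0.18, 0.00 to 0.36), were under 2-fold. In reads, the label-retaining library had 2.41 Pdk2 reads for each Pdk4 read (exact interval 2.20 to 2.63), against 0.0721 (0.0668 to 0.0777) in the non-retaining library. Summed per length over the 4 kinases, the level was 61.0 TPM in label-retaining cells, against 185 TPM in non-retaining cells, of which Pdk4 made up 11.4 TPM in label-retaining cells, against 156 TPM in non-retaining cells.

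Within the pentose phosphate genes the oxidative entry enzyme was higher. G6pdx, glucose 6-phosphate dehydrogenase (chromosome X, 74409483 to 74429194, minus strand), which makes NADPH, had 5465 normalised reads in the label-retaining library, against 1958 in the non-retaining library (1.48, 1.41 to 1.55). Pgd, the next NADPH-producing enzyme, had 3226 in label-retaining cells, against 2127 in non-retaining cells (0.60, 0.52 to 0.68). Of the non-oxidative enzymes, transaldolase (Taldo1) had 6068 in label-retaining cells, against 3531 in non-retaining cells (0.78, 0.72 to 0.84) and transketolase (Tkt) 7011 in label-retaining cells, against 8495 in non-retaining cells (-0.28, -0.32 to -0.23). Only G6pdx among the 4 passed 2-fold under the deposited scaling.

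The promoter windows of the 2 lowest and the 2 highest of the 39 genes, together with Pdk2 as the isoenzyme that differed in the direction opposite to Pdk4, are shown here because they mark both ends of the range of ratios. Each window runs from 250 bases before to 50 bases after a RefSeq start (GRCm38.p6), 5′ to 3′ on the gene's strand. Capitals mark ACGTG and GCGTG, the core letters of hypoxia response elements, read on both strands (an ACGTG can lie within the E-box CACGTG, as it does in Pdk2).
Pdk4, chr6:5496229-5496528, minus strand: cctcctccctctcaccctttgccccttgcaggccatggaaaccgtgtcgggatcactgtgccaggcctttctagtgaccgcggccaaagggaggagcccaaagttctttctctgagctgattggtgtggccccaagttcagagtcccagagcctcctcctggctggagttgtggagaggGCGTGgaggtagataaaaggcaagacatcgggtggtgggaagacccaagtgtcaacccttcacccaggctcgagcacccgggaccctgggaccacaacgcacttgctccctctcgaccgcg
Pfkp, chr13:6648722-6649021, minus strand: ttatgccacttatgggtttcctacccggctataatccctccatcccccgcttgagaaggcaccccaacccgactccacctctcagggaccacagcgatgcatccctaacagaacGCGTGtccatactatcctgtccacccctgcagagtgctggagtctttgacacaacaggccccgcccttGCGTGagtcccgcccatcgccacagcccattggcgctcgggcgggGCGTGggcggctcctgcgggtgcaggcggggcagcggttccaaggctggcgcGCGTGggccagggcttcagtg
Pfkfb4, chr9:108991652-108991951, plus strand: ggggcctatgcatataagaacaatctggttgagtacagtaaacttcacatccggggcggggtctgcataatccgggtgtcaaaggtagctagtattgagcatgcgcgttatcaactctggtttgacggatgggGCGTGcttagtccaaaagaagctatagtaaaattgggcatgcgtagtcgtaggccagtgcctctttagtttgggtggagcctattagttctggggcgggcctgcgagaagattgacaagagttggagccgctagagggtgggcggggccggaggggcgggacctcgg
G6pdx, chrX:74428831-74429130, minus strand: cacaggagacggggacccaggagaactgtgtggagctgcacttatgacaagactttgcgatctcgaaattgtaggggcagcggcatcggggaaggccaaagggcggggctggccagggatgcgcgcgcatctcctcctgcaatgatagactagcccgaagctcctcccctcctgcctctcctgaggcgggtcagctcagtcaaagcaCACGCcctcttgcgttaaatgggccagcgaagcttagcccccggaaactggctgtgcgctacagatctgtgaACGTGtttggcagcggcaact
Pdk2, chr11:95041322-95041621, minus strand: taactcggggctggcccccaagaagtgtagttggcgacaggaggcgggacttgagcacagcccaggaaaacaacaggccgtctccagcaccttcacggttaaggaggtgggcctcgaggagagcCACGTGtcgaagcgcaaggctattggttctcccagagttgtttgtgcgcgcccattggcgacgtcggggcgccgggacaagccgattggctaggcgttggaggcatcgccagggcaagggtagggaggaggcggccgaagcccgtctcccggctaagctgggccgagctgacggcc

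Genes called in either direction held this core. Windows were found for 37 of the 39 genes. ACGTG or GCGTG occurred in at least 1 window of 4 of the 4 higher genes, 6 of the 6 lower genes with a window and 24 of the 27 uncalled genes. By window, 75.9% of the 58 windows of these genes and 43.8% of all 32851 promoter windows held it, with a median GC content of 60.8% and 52.7%. The FOXO core GTAAACA occurred in 3.65% of all windows and in 1.72% of those of the 39 genes (1 of 58, in Aldoc). It was found in 0 of the 4 higher and 0 of the 6 lower genes, which are too few for the 0 to be read at that rate. The CCAAT box occurred in 37.4% of all windows and 41.4% of those of the 39 genes. Pdk2 and Pfkfb2 each have more than 1 RefSeq start. The other Pdk2 window, chr11:95040826-95041125, held 0 matches to ACGTG and 0 to GCGTG. Which start was used cannot be read from gene counts. A match is a stretch of letters, not a site shown to be used.

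Further genes of the same metabolism were taken from a list of related enzymes, carriers and regulators. Of 44 in the table, 40 passed the minimum count. The size rule called 11 of them higher and 9 lower, beside 14.5% and 19.4% of all measured genes, and their median log2 ratio was 0.23. Of 5 gluconeogenic and anaplerotic genes, 4 were higher and 0 lower, where 14.5% of all measured genes were higher. These were the fructose bisphosphatase genes Fbp1, with 848 reads in the label-retaining library against 168 in the non-retaining library (2.47, 2.23 to 2.72), and Fbp2 (2.14, 1.69 to 2.64), the mitochondrial phosphoenolpyruvate carboxykinase gene Pck2 (1.58, 1.49 to 1.67) and the pyruvate carboxylase gene Pcx (1.20, 1.09 to 1.32). Fructose bisphosphatase catalyses the step opposite to phosphofructokinase, and pyruvate carboxylase makes oxaloacetate from pyruvate.

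In the pentose phosphate branch, H6pd, the enzyme that starts the same reaction sequence inside the endoplasmic reticulum, was at 1.33 (1.26 to 1.39), beside G6pdx, and the sedoheptulokinase gene Shpk was at 1.59 (1.41 to 1.78). The other higher genes were Slc2a13, a proton and myo-inositol carrier (1.60, 1.13 to 2.11), Bpgm, which makes 2,3-bisphosphoglycerate (1.09, 0.94 to 1.25), the D-lactate dehydrogenase gene Ldhd (1.24, 1.05 to 1.43) and Pdpr, the regulatory subunit of pyruvate dehydrogenase phosphatase (1.18, 1.07 to 1.29). Among glucose carriers, the insulin-responsive transporter gene Slc2a4 (GLUT4) had 117 reads in the label-retaining library, against 2516 in the non-retaining library (-4.29, -4.57 to -4.03). Slc2a9 (-2.97, -3.56 to -2.45), Slc2a6 (-2.15, -3.17 to -1.32) and the glycogen phosphorylase gene Pygl (-1.38, -1.71 to -1.06) were also lower.

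**Figure D4:**
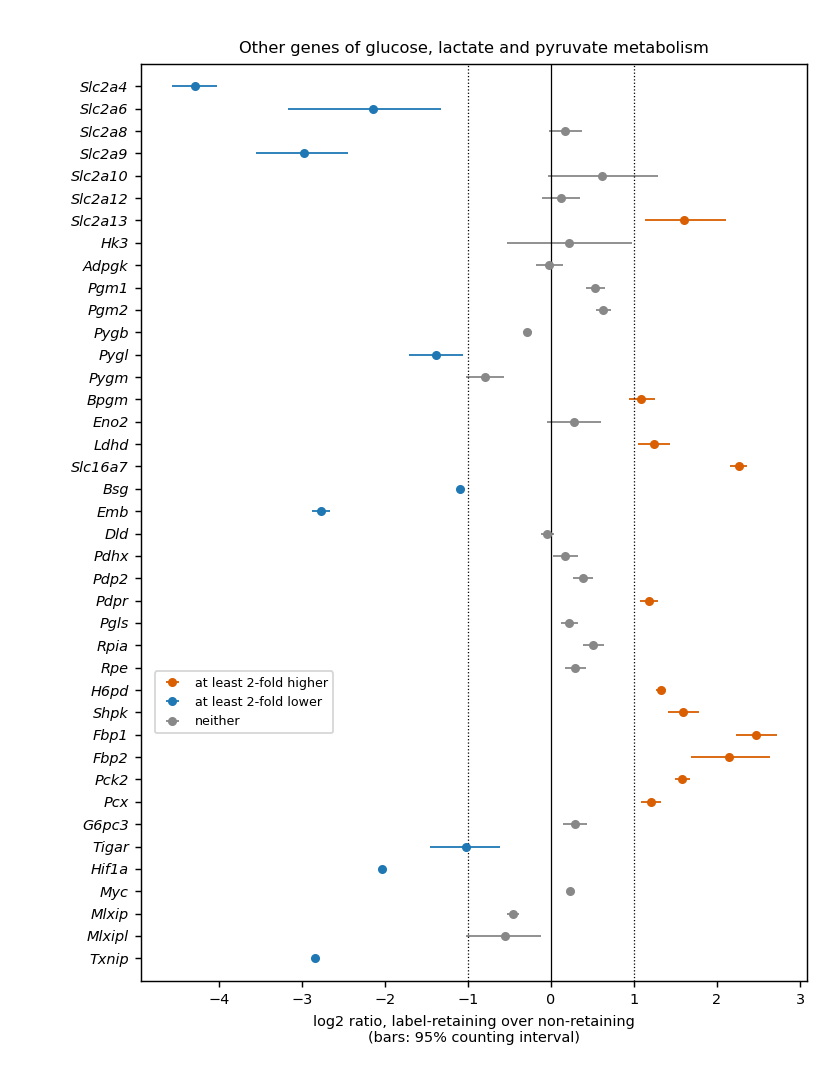
log2 ratio of label-retaining over non-retaining for the 40 measured genes of the wider list, with 95% counting intervals; dotted lines mark 2-fold. Fbp1 (2.47), Slc16a7 (2.26) and Fbp2 (2.14) lie farthest to the right and Slc2a4 (-4.29) farthest to the left.

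The scaling between libraries set how far the calls held. The 7 lower genes were called lower under the deposited scaling and under each of 5 other scalings. The 4 higher genes kept a positive ratio under all of these, but scaling on the luminal keratins Krt8 and Krt18, which shifts every log2 ratio by -0.78, left 0 of them at 2-fold, with Pfkfb4 at 0.71, G6pdx at 0.70, Pdk2 at 0.56 and Pfkfb2 at 0.22. Under that scaling 28 of the 28 uncalled genes were below 0, whereas 20 were above 0 under the deposited one. When libraries were scaled on their total reads, 11 of the 28 were above 0 and 17 below. Of the 11 higher genes of the wider list, Slc16a7, Fbp1 and Fbp2 were still 2-fold higher under the keratin scaling.

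**Figure D5:**
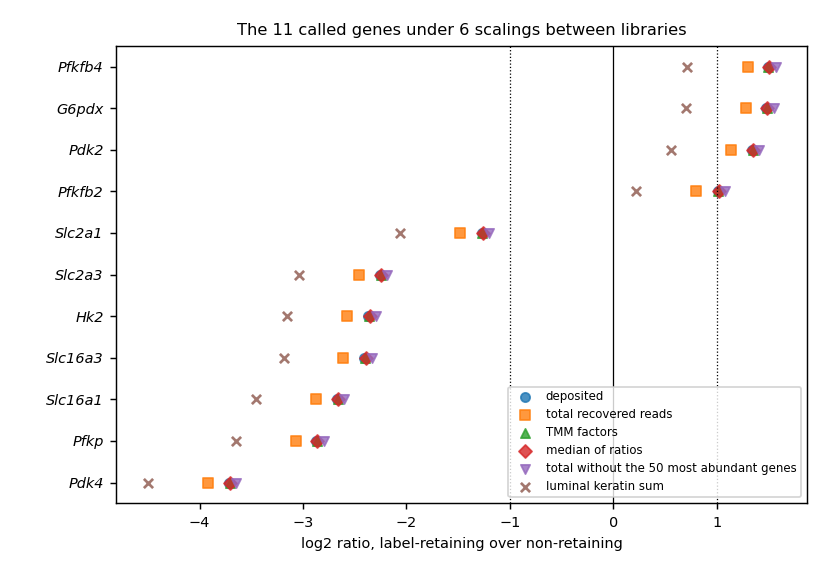
log2 ratio of label-retaining over non-retaining for the 11 called genes under the deposited scaling and 5 others; dotted lines mark 2-fold. The 7 lower genes lie left of -1 under every scaling shown, while the keratin scaling (crosses) brings the 4 higher genes between 0.22 and 0.71.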

How the data were processed

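A Qiagen RNeasy kit was used to extract total RNA, and libraries came from Illumina's TruSeq Stranded Total RNA chemistry, per the labels' protocols. Per the submitters' processing notes, the genome was mm10 and the tools included DESeq 1.16.0, HTSeq 0.6.0 and TopHat2 2.0.10, with no roles given; annotation release and strand setting are unstated there. The deposited values are a normalised signal: the authors divided each library's gene read counts by a size factor, as the values show. All of them (100%) were whole multiples of a step, within 0.001 of a read, with size factors of 1.00 (label-retaining) and 1.10 (non-retaining). Reads were recovered by dividing by the step.

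Symbols, positions and exon-union lengths came from GENCODE M21, with 18634 of 18724 identifiers matched. Log2 ratios, Clopper-Pearson intervals and shares were computed in Python 3.11.15 with scipy 1.17.1, and TMM factors with edgeR 4.0.16 on recovered reads. No count model was tested, since each group had 1 library. The calculation was tested on simulated counts that held counting error only, so that test bears on the code and not on spread between libraries. All 39 genes were accounted for. Values in both libraries are given for the called genes among them, while several uncalled genes are given by ratio or interval alone. The genes and lists were chosen with earlier results of these data known. Alternatives covered 5 scalings, the pseudocount, the minimum count, the fold threshold and shares without length.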

Additional observations from a re-analysis of the deposited data

How the results depend on the processing

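Neither leaving out a library nor any replicate check was possible with 1 library per group. No paired analysis was possible because each group had 1 library. Changing the pseudocount to 5, removing the minimum count or raising it to 100, and scaling by TMM factors, by the median of ratios or by total reads without the 50 most abundant genes kept all 11 calls among the 39 genes. Scaling by total reads, which shifts every log2 ratio by -0.20, dropped Pfkfb2 and added Eno1 as lower.

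Under the keratin scaling 0 of the 39 genes were higher and 13 lower, with a median log2 ratio of -0.71. Of the wider list 3 were higher and 14 lower, and of all measured genes 903 were higher and 7128 lower, so the split follows the shift. The genes added as lower were Hk1, Pfkl, Pfkfb3, Gapdh, Eno1 and Tkt. At a threshold of 1.5-fold, 7 of the 39 genes were higher, adding Pfkm, Pgd and Taldo1, beside 4151 (24.2%) of all measured genes higher, and 10 were lower, adding Pfkl, Gapdh and Eno1, beside 4608 (26.8%) lower. With a minimum mean count of 100, 1599 of all genes were higher and 2009 lower, because fewer genes were measured. Without division by exon length, Pfkl held 48.6% of the phosphofructokinase reads of the label-retaining library, Pfkm 31.4% and Pfkp 19.9%. Pfkl thus stood first there in place of Pfkm, which leads per length (51.8%, with Pfkl at 40.1%). In the non-retaining library Pfkp held 58.4% of these reads, Pfkl 33.7% and Pfkm 7.91%. Pfkp thus stood first there in place of Pfkl, which leads per length (42.9%, with Pfkp at 37.0%). Depth limits mainly Pfkfb1, with 32 label-retaining and 27 non-retaining reads.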

Other observations

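Of 6 regulators of glucose metabolism in the wider list, 3 were lower and 0 higher, beside 19.4% and 14.5% of all measured genes. Txnip, whose product restrains glucose uptake and whose transcript rises with intracellular glucose in many cells, had 7931 reads in the label-retaining library and 62117 in the non-retaining library (log2 ratio -2.84, interval -2.87 to -2.80). Hif1a, the oxygen-regulated subunit of hypoxia-inducible factor, had 6913 reads in the label-retaining library and 31096 in the non-retaining library (-2.04, -2.07 to -2.00). Tigar, whose product lowers fructose 2,6-bisphosphate, was at -1.02 (-1.46 to -0.61), and under 2-fold with a pseudocount of 5 or when libraries were scaled on their total without the 50 most abundant genes. Myc was near equality, at 0.23 (0.21 to 0.26) and at -0.55 under the keratin scaling. Also under 2-fold were the glucose-sensing factor genes Mlxip (-0.46) and Mlxipl (-0.56). The basal markers were lower in 12 of 12 in the same libraries, and their part in these values was not tested.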
